A study of Mus musculus with 60 samples.

Results

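The circular RNA described here came from the Ikzf1 region of mouse chromosome 11. Members were taken as all table entries lying wholly between positions 11630000 and 11725000 of that chromosome (build GRCm39), a window chosen by its mean abundance in spleen, since the most abundant circular RNA (circRNA) of that organ lies in it. The window held 1 of the 2799 different circRNAs of the series, named 11:11650205|11657904 after its chromosome, start and end, and this circRNA stood in all 5 organ tables, which gives 5 of 4724 table entries. No circRNA crossed the edges of the window. The nearest ones outside it were chromosome 11, 11365188 to 11368287, 282 kb before the member and listed in heart (5.67), and chromosome 11, 12293744 to 12328359, 636 kb after it and listed in brain (2.15). These 2 values are mean normalized counts in the authors' deposited tables.

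The study sequenced circRNAs in whole brain, heart, kidney, liver and spleen of 3 mice labelled Ftsj1_DF, which are Ftsj1-deficient, and 3 labelled WT, which are wild-type. All 6 mice were male, 4 months old and untreated, and each of the 30 libraries was run in 2 sequencing batches. The labels call 4 of the mice brothers, 2 of them WT, and the other 2 brothers too, 1 of them WT. Ftsj1 encodes a tRNA 2'-O-methyltransferase. The sources used here do not say how the Ftsj1 deficiency was made, and the targeted gene was not analysed here. Values per library were not analysed here either, so depth per library and the spread between mice are unknown. The tables hold no gene names, and the labelled organs were therefore not checked against marker genes.

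A circRNA is a closed RNA ring made when the end of an exon is spliced back to the start of the same or an earlier exon, and it is recognised by reads over that back-splice junction. RNase R, used in these libraries, digests linear RNA and leaves most rings. Ikzf1 encodes Ikaros, a zinc-finger transcription factor best known for its role in lymphocyte development, and spleen is rich in lymphocytes. In whole organs, fewer cells of a type and less RNA per cell cannot be told apart.

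The circRNA spanned 7700 bases of the genome, first and last base included, compared with a median span of 5906 bases over the 2799 circRNAs. The gene annotation at hand, GENCODE M21, is for GRCm38, so positions were not compared and the span alone was matched. Of the 95 distinct pairs of a first and a last exon within annotated Ikzf1 transcripts, 1 spanned exactly 7700 bases. This pair is exon 2, of 54 bases, and exon 3, of 120 bases, with an intron of 7526 bases between them, and it occurs in 5 of the 6 annotated Ikzf1 transcripts. On chromosome 11, 5 of 3003 annotated gene names had any exon pair of that span. The span is thus a match of lengths and carries no proof of the exons used.

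**Figure D1:**
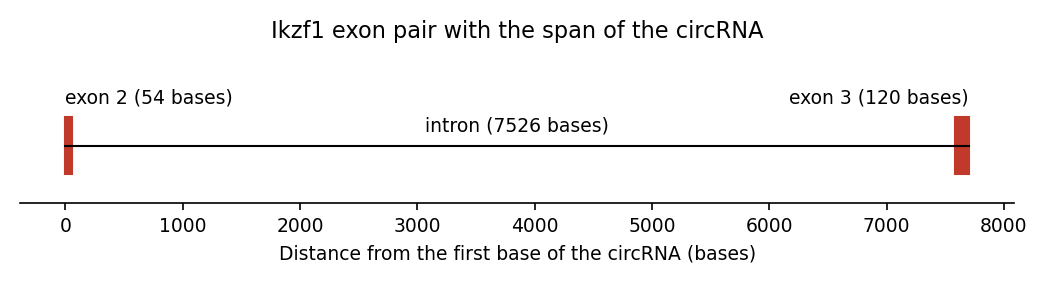
Annotated Ikzf1 exon pair whose span equals that of the circRNA, drawn to scale along the distance in bases from the first base of the circRNA. The boxes are exon 2 (54 bases) and exon 3 (120 bases), and the line between them is the intron of 7526 bases, which makes up nearly the whole span of 7700 bases.

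The sequences of these exons are shown because they define what a ring of the matched pair would contain. Exon 2 holds the start codon of Ikaros, after 14 untranslated bases, so the ring would carry the first coding bases of the gene and lack the later exons that encode the zinc fingers. With the intron removed, the pair amounts to 174 bases, or 2.26% of the span. Below, the first line gives the 160 bases from the start codon to the end of exon 3 with the start codon in capitals. The second gives the predicted back-splice junction, with the last 15 bases of exon 3 in lower case and the first 15 bases of exon 2 in capitals. Both were read from the GENCODE M21 transcripts (GRCm38, plus strand), bases 257 to 430 of the annotated Ikzf1 transcript with 8 exons.
Ikzf1 exons 2 and 3 from the start codon: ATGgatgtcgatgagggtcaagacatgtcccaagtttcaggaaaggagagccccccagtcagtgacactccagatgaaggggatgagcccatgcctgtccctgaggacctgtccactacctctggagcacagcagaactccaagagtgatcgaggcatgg
predicted back-splice junction: gtgatcgaggcatggATAACCTGAAGACAA
GC content was 54.0% over the 174 bases, 44.4% in exon 2 and 58.3% in exon 3. The 174 bases are 58 whole codons, and 1 round of the ring read in the frame of the start codon met 0 stop codons. The deposited tables do not show the inside of the ring, and whether the intron is retained was not tested.

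The circRNA was the most abundant of the 308 in spleen, which is how it was chosen, and ranked 3 of 1856 in brain. Abundance is given as the mean normalized count, which averages both genotypes of an organ. Tables were normalized one organ at a time, so ranks and within-table ratios are compared here and counts are not. In the authors' deposited tables its mean normalized count came to 199.5 for spleen, 243.2 for brain, 50.9 for liver, 11.9 for kidney and 11.7 for heart. Spleen and brain formed a high pair, with 60.2 and 62.8 times the median circRNA of their own authors' deposited table. The brain mean may stand for 1 genotype only. Taken as a plain average of the genotype means, it can be split by the brain fold change given further on. This gives 486 normalized counts in 1 genotype and 0.573, under the table median of 3.87, in the other. Whether the brain mean rests on 1 library is unknown. Liver followed at 5.82 times, heart at 4.21 times and kidney at 3.58 times the median of the authors' deposited table. By rank the order was spleen, brain, liver (67 of 900), heart (71 of 664) and kidney (134 of 996). No spread over libraries is at hand, so neighbours in this order are not shown to differ.

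**Figure D2:**
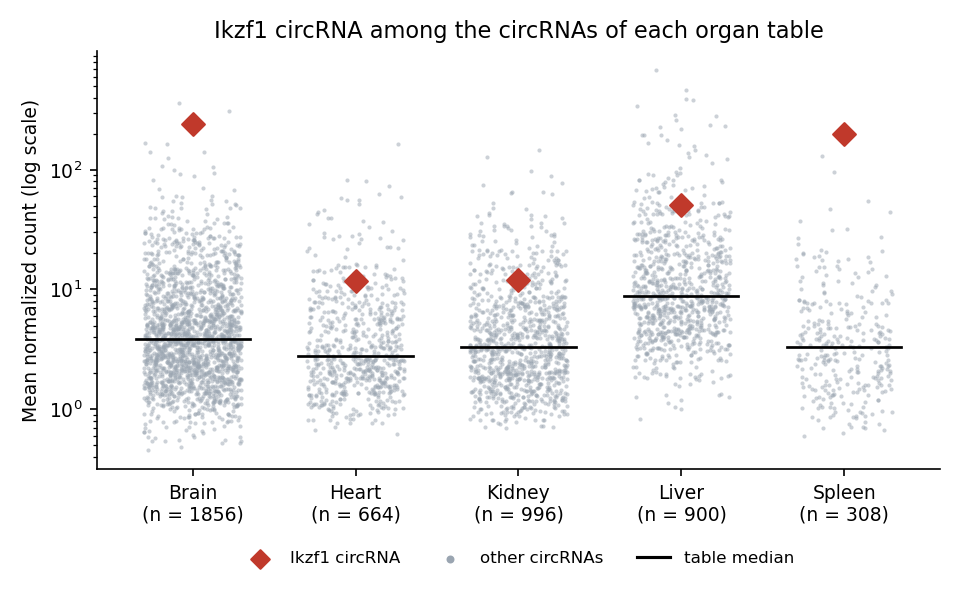
Mean normalized count (log axis) of every circRNA in the 5 organ tables, with 1 grey point for each circRNA, a black line at the table median and a red diamond for the Ikzf1 circRNA. The diamond is the highest point of spleen and ranks 3 in brain, and lies 3.58 to 5.82 times above the median in heart, kidney and liver.

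Its share of all mean normalized counts in the authors' deposited table was 9.33% for spleen, 1.58% for brain, 0.285% for heart, 0.268% for liver and 0.176% for kidney. The spleen table is the shortest, and an equal share for each circRNA would be 0.325% there and 0.0539% in brain. Relative to an equal share, spleen (28.7 times) and brain (29.2 times) were close, and the brain figure carries the limit of the brain mean given above. Over only the 133 circRNAs listed in all 5 tables, the spleen share was still the larger, at 12.5% against 5.43% in brain. In spleen the next circRNA stood at 129.7 in the authors' deposited table, so the leader exceeded it 1.54-fold. From the authors' deposited tables, the ratio of the first to the second circRNA came to 1.17 for brain, 1.99 for heart, 1.15 for kidney and 1.49 for liver. In brain, the Ikzf1 circRNA stood between 310.7 and 214.8 in the authors' deposited table. In kidney its neighbours were at 11.96 and 11.90 in the authors' deposited table, so its place there is one among many similar circRNAs.

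A single ring shape was listed from the locus. No other circRNA overlapped the Ikzf1 circRNA in any of the 5 tables, and none shared its start or end. The leaders of the other 4 tables each overlapped with 1 or 2 further circRNAs. These were chromosome 1, 87291826 to 87307730 (brain, 2 overlapping), chromosome 11, 6263788 to 6267080 (heart, 2), chromosome 5, 89528172 to 89537469 (kidney, 2), and chromosome 7, 58890715 to 58896965 (liver, 1). Standing alone was common otherwise. Among the 28 circRNAs that were in the first 10 of any table, 12 had no overlapping circRNA, and among the 133 listed in all 5 tables, 68 (51.1%) had none. Each table was filtered for low expression by the authors, so rarer rings of the locus may lie below that filter.

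The 3 circRNAs with the most similar abundance pattern were found by the summed difference in abundance percentile over the 5 organs, among the 2798 others. The percentile is the share of the table at or below a circRNA, and 0 where it was not listed. The nearest was chromosome 1, 178150699 to 178152878, with a summed difference of 19.0 percentage points. It ranked 5 in brain, 6 in spleen, 9 in liver, 50 in kidney and 55 in heart. Next came chromosome 3, 51215471 to 51233456 (19.3 points), which ranked 10 in brain, 5 in spleen, 30 in liver, 67 in kidney and 26 in heart. Last of the 3 was chromosome 19, 57366981 to 57367607 (19.9 points), at ranks 77, 21, 34, 81 and 74 in the same order of organs. All 3 stood at a higher percentile than the Ikzf1 circRNA in kidney and liver, and at a lower one in brain and spleen. The likeness is over 5 organs of the same mice and is a description. It uses the brain mean over both genotypes, and so carries the same limit as the brain rank. The spleen ranks carry a limit too, given with the missing p-values further on.

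**Figure D3:**
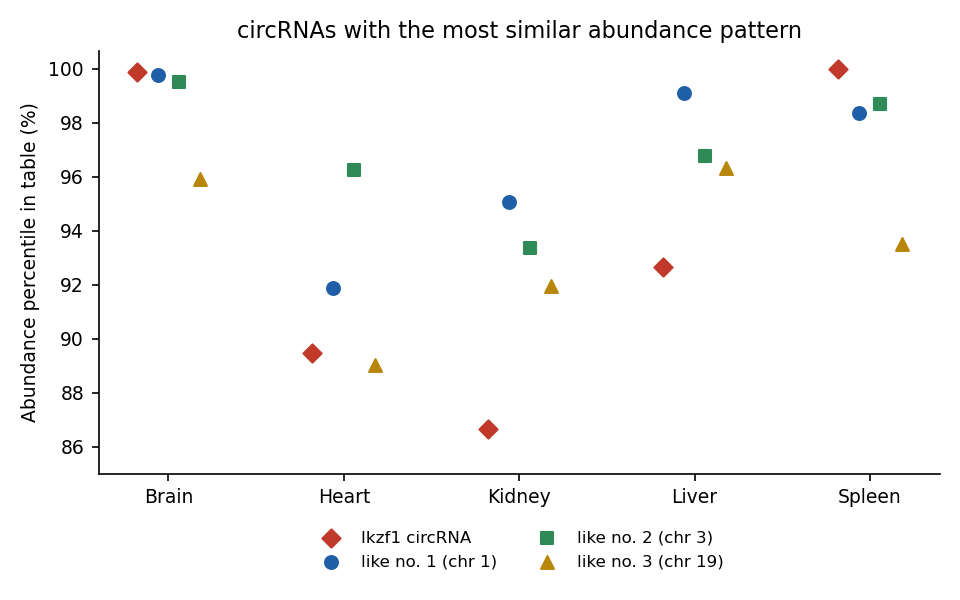
Abundance percentile (%, on an axis that does not start at 0) of the Ikzf1 circRNA (red diamonds) and of the 3 circRNAs most like it in each organ table. The red diamonds are the highest points in spleen and in brain (99.9) and the lowest in kidney (86.6) and liver (92.7).

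The genotype comparison asked whether the Ikzf1 circRNA differed between Ftsj1_DF and WT mice in each organ. In the authors' DESeq2 test it was called in 0 of 5 organs at an adjusted p below 0.05, 4 organs had a p-value, and brain had none. At that threshold 0% of the tested circRNAs were called in brain, heart, kidney and spleen, and 0.113% in liver. Shares are of the circRNAs with a p-value, 883 in liver, where 313 of 900 had no adjusted p. At an unadjusted p below 0.05, where the Ikzf1 circRNA was called in none of the 4 organs either, the share of circRNAs called was 2.05% for brain, 2.86% for heart, 1.82% for kidney, 9.06% for liver and 2.05% for spleen. The log2 fold change was positive in all 5 authors' deposited tables. Among all circRNAs of a table, the positive share ran from 35.7% (spleen) to 57.8% (kidney) in the authors' deposited tables. The organs came from the same mice, so these signs are not independent, and their agreement was not tested. The sources used here do not name the numerator genotype, so signs are as deposited.

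Heart gave the closest estimate, with a log2 fold change of 0.46 (SE 0.58, 95% interval from -0.68 to 1.60, p = 0.432) in the authors' DESeq2 test. Kidney had 0.72 (SE 1.10, interval from -1.43 to 2.87, p = 0.514) in the authors' DESeq2 test. The liver estimate was 1.34 (SE 0.85, interval from -0.33 to 3.02), and its p of 0.116 in the authors' DESeq2 test was the smallest of the 4. Spleen, where the circRNA leads, had 0.97 (SE 1.53, interval from -2.02 to 3.96, p = 0.524) in the authors' DESeq2 test. All 4 intervals included 0, and the adjusted p lay between 0.996 and 0.999 in the authors' DESeq2 test. The spleen interval leaves room for changes from 0.247-fold to 15.6-fold. The heart interval, at a far lower rank, ran from 0.623-fold to 3.02-fold. SE differed between these organs, with a median of 1.95 over spleen circRNAs and 1.56 over heart circRNAs in the authors' deposited tables. Over the 20 most abundant circRNAs, the median SE was 1.48 in spleen and 0.32 in heart. The spleen SE of the Ikzf1 circRNA was thus below the spleen median and near that of the 20 most abundant.

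**Figure D4:**
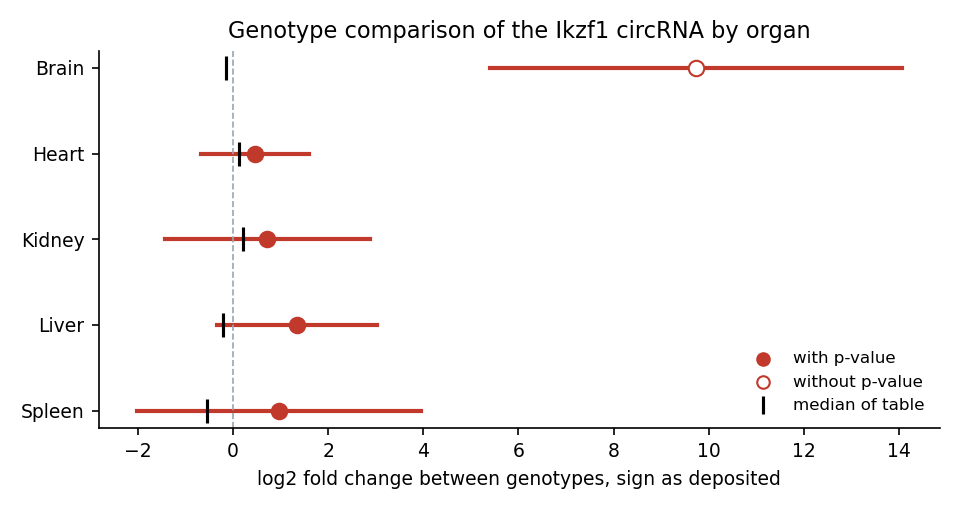
Log2 fold change of the Ikzf1 circRNA between the genotypes (horizontal axis, sign as deposited) in each organ, with 95% intervals from the deposited SE. Filled circles have a p-value, the open circle of brain has none, and black ticks mark the median log2 fold change of each table. The 4 filled circles lie between 0.46 and 1.34 with intervals across 0. The brain interval runs from 5.40 to 14.06 and has no test behind it.

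In brain the authors' deposited table gave a log2 fold change of 9.73 (SE 2.21) with neither a p-value nor an adjusted p. The 95% interval from that SE runs from 5.40 to 14.06. It has no test behind it and is a description of the deposited SE only. This was the highest fold change and the largest absolute Wald statistic (4.40) of the 1856 brain circRNAs in the authors' deposited table. The runner-up in positive log2 fold change stood at 5.40, and the next largest absolute Wald statistic was 3.60, both in the authors' deposited table. If the plain average of the 2 genotype means equals the deposited mean, a fold change of this size sets 1 genotype at 486 and the other at 0.573 normalized counts. The same arithmetic gives 264 and 135 in spleen, 73.0 and 28.8 in liver, 14.8 and 9.02 in kidney, and 13.5 and 9.87 in heart. The brain mean, at rank 3, would then rest almost wholly on 1 genotype, while in the other 4 organs both genotypes would hold part of it.

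The brain estimate also stood apart from the brain circRNAs nearest in mean over both genotypes. The 20 others nearest in mean normalized count stood at 59.9 to 364.5 in the authors' deposited table. They had, in the authors' deposited table, log2 fold changes between -2.15 and 2.11 with a median of -0.18. In the authors' deposited table their SE lay between 1.07 and 1.84, so all 20 were estimated more closely than the Ikzf1 circRNA. DESeq2 can withhold a p-value where the count of 1 library lies far from the rest of its group. How the brain counts were spread over the 6 mice was not analysed here, and its bearing on the result was not tested. Without a p-value, the brain difference is not a call. The brain value was also known when the member was chosen, so its distance from the other organs was not tested.

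Missing p-values numbered 3 in brain, 16 in spleen, 17 in liver, 7 in kidney and 0 in heart. In brain, 3 circRNAs had none, and the other 2 had log2 fold changes of 2.11 (chromosome 9, 96484766 to 96493552) and -2.33 (chromosome 5, 118809078 to 118819036) in the authors' deposited table. In spleen 16 had none, all 16 were listed in brain too, and 15 of the 16 were negative in log2 fold change, per the authors' deposited table. Both traits were common there, since 225 of all 308 spleen circRNAs were listed in brain and only 35.7% of the 308 were positive. The spleen circRNAs that brain also listed had a median log2 fold change of -0.90, with 170 of 225 negative, in the authors' deposited table. Among the 50 most abundant brain circRNAs, 35 were listed in spleen, and 31 of these 35 were negative there, with a median of -1.55 in the authors' deposited table. Of the 10 most abundant circRNAs of spleen, 8 were negative in the authors' deposited table. Among these 10, 4 had no p-value, and all 4 were negative. The spleen circRNAs that brain did not list had a median of 0.46, with 28 of 83 negative, in the authors' deposited table. The Ikzf1 circRNA is listed in brain and stood at 0.97 in spleen, per the authors' deposited table. It leads spleen, so the 20 spleen circRNAs nearest in mean normalized count were all less abundant, at 18.1 to 129.7 in the authors' deposited table. The Ikzf1 circRNA stood above all 20 in fold change, and they ranged between -4.58 and 0.49 on that scale in the authors' deposited table. Over all 308 spleen circRNAs, its fold change ranked 53 from the highest. The nearest circRNA by pattern, chromosome 1, 178150699 to 178152878, had -4.58 (SE 1.65) in spleen with no p-value, and -0.34 (SE 1.20) in brain, in the authors' deposited tables. Next by pattern, chromosome 3, 51215471 to 51233456, had -3.16 (SE 1.61) in spleen, also with no p-value, and 0.64 (SE 1.07) in brain, in the authors' deposited tables. The last of the 3, on chromosome 19, had 0.49 (SE 1.26) in spleen in the authors' deposited table. Whether a brain and a spleen library were mixed or exchanged was not tested. The ranks, shares and fold changes of both brain and spleen, and the likeness in pattern, would all depend on it.

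**Figure D5:**
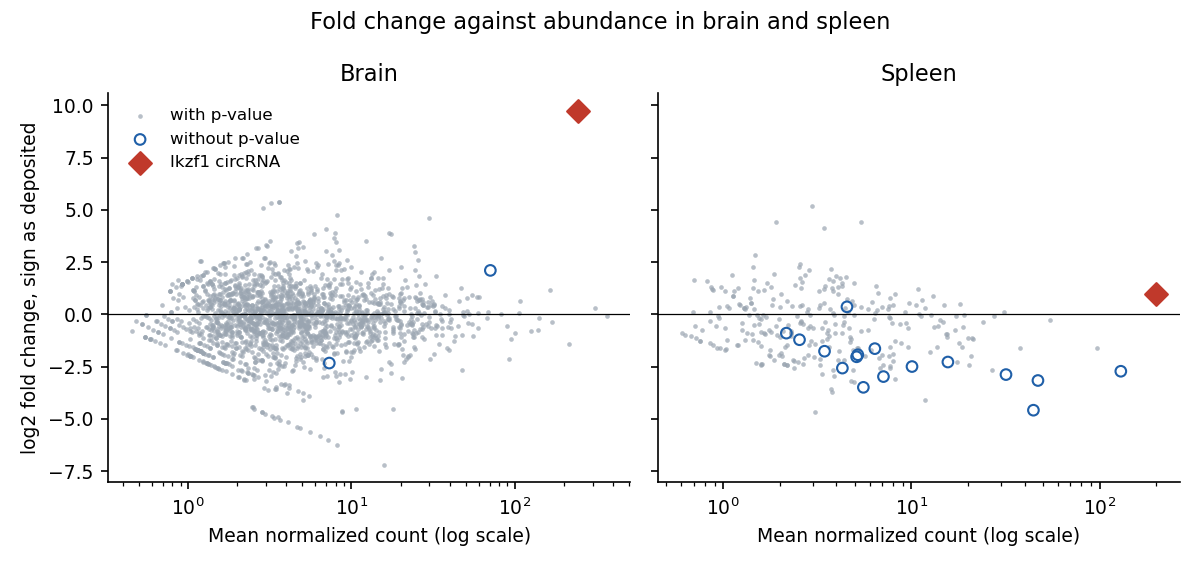
Log2 fold change between the genotypes (sign as deposited) against mean normalized count (log axis) for every circRNA of brain and of spleen. Grey points have a p-value and open blue circles have none. The red diamond is the Ikzf1 circRNA, which has no p-value in brain, where it lies at 9.73, and has one in spleen, where it lies at 0.97.

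Over the 5 organs the mean log2 fold change of the Ikzf1 circRNA, weighted by the inverse of the squared SE from the authors' deposited tables, was 1.07 (SE 0.42). Heart carried 51.1% of the weight and brain 3.54%. Without brain the weighted mean was 0.75 (SE 0.42), and without heart it was 1.71 (SE 0.59). The organs share mice, so these SE are a description and no p is given.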

How the data were processed

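CircRNA libraries of 5 organs from 3 Ftsj1_DF and 3 WT mice were made from RNA depleted of ribosomal RNA, polyadenylated and digested with RNase R, per the labels' protocols. BWA 0.7.17-r1188, DESeq2 and build GRCm39 are named, without roles, per the submitters' processing notes. The sources used here name no circRNA caller, filter limit or model formula, and do not say how batches were handled. Each deposited table gives, per the file headers, a mean abundance signal (taken as the mean normalized count), a log2 fold change with its SE, a Wald score, and p-values. Had both runs of a library been fitted as separate samples, the SE would be too small. The deposited Wald score and p-values were recomputed from the log2 fold change and SE and differed by rounding. Adjusted p-values were recomputed from the deposited p-values, over circRNAs with a deposited adjusted p only, and also differed by rounding. Benjamini-Hochberg adjustment over every liver p-value of the authors' DESeq2 test gave 0.784 for the Ikzf1 circRNA. Only these comparisons were analysed, so the planned edgeR test on counts was not run and no depth per library is known.

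Ranks, shares, 95% intervals and weighted means were computed with Python 3.11.15, pandas 2.3.3 and scipy 1.17.1. Helper functions were tested on simulated data. Exon spans and sequences came from GENCODE M21 (GRCm38) transcripts, matched by length. Over all circRNAs, 98.4% had the span of some exon pair on their chromosome with both ends counted, against 89.6% and 89.9% for 1 base less and 1 base more. Host gene lists need a GRCm39 annotation and were not used. The named circRNAs are every member, the other table leaders, the 3 most alike in pattern, and the nearest ones outside the window. Those without a p-value in brain were added after their values were seen. The member and all lists were chosen with earlier results of these data known.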

Additional observations from a re-analysis of the deposited data

How the results depend on the processing

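Ranks and shares depended on which circRNAs were counted. Among only the 133 circRNAs listed in all 5 tables, the Ikzf1 circRNA ranked 44 in heart, 64 in kidney and 37 in liver, with ranks of 1 in spleen and 3 in brain. Its share of the summed mean normalized count over those 133 was 5.43% in brain, 0.646% in heart, 0.519% in kidney and 0.708% in liver, and 12.5% in spleen. Fewer circRNAs enter these sums, so shares could only rise. Counting only circRNAs with a p-value left ranks within 1 place, and brain had no value there. The count of called organs remained 0 with an unadjusted threshold and with adjustment over every p-value. Brain has no p-value under either. The weighted mean without heart was 1.71, and leaving out each other organ gave 0.75 to 1.13. The median over organs was 0.97. Of the 3 most similar circRNAs, 2 were also named by log2 ratios to the table median. No paired analysis was possible because the tables hold no values per library, and replicates could not be left out for the same reason. Depth is unknown.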
